A study of Homo sapiens with 6 samples.

Results

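The enzymes described here run the tricarboxylic acid (TCA) cycle, feed pyruvate into it, and connect it to malate, phosphoenolpyruvate and glutamate. They are 38 genes, chosen by symbol and role, and not every gene of these roles is among them. They comprise subunits of cycle enzymes, the pyruvate dehydrogenase complex with kinases and phosphatases, pyruvate carboxylase and the mitochondrial phosphoenolpyruvate carboxykinase. The malic enzymes, and GLUD1 and GOT2, which handle glutamate, complete the set. Each was read from the locus that carries its symbol and an annotated transcript, and all 38 were found among the 60835 loci of the table and passed the filter on low counts, with 336 to 54831 counts per library. RNA came from ARPE-19 cells, an established line of human retinal pigment epithelium labelled as wild type. One group was kept in medium with a normal glucose concentration and the other in medium with a high one, each for 72 h, with 3 libraries per group. The labels give no concentration and do not tell whether each library stems from its own culture, so p-values here rest on a spread that may be purely technical. In bulk RNA, fewer cells with a transcript and less of it per cell cannot be told apart.

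As background, the cycle oxidises acetyl groups to carbon dioxide in the mitochondrial matrix and passes the electrons to the respiratory chain. Pyruvate dehydrogenase makes acetyl-CoA from pyruvate and is switched off by PDK kinases and on by PDP phosphatases, while pyruvate carboxylase makes oxaloacetate from the same pyruvate. Isocitrate is oxidised by an NAD-dependent enzyme of the cycle, IDH3, and by a pair of NADP-dependent enzymes, IDH1 in the cytosol and IDH2 in mitochondria. The retinal pigment epithelium is known for oxidative metabolism and for reductive carboxylation, in which NADP-dependent isocitrate dehydrogenases run in reverse and turn 2-oxoglutarate into isocitrate.

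The libraries held 81616741 to 87748820 counts each. The third normal glucose library stood apart: on the second principal component of all tested loci, with 16.7% of the variance, it lay at -50.8 while the other 5 libraries lay between 5.09 and 17.1. It had the highest value of all 6 libraries for 14 of the 38 enzymes. FPKM values are fragments scaled to a length and to library size. Of 12 markers of the retinal pigment epithelium, 5 had a mean of at least 1 FPKM in a group. Among them were OTX2 (6.39 in normal and 7.34 in high glucose) and MITF (9.03 and 5.57). The mature markers RPE65, TYR and TTR were near 0, with group means of at most 0.0359 FPKM. The summed level of these 12 markers was 98.3 to 187 FPKM in normal and 396 to 420 FPKM in high glucose, and most of it was KRT8 and KRT18, keratins of simple epithelia, whose means were 44.9 and 63.8 FPKM in normal and 146 and 241 FPKM in high glucose. Of the 9 of these markers that were tested, KRT8 and KRT18 rose and BEST1, a chloride channel of the retinal pigment epithelium, fell (0.855 to 0.189 FPKM, log2 change -2.20; edgeR BH-adjusted p = 0.0113), and 5 of the 9 had negative estimates. The summed level of 12 fibroblast markers was 25.9 to 37.2 FPKM in normal and 31.2 to 32.6 FPKM in high glucose, with DCN and LUM at group means of at most 0.154 FPKM. Within that sum PDGFRB rose (11.3 to 18.6 FPKM; edgeR BH-adjusted p = 0.00572), while TWIST1 fell (3.15 to 1.74 FPKM; 0.0203) and so did COL1A1, from 7.69, 3.49 and 1.13 FPKM in the normal glucose libraries to a mean of 0.744 FPKM (0.0302). The first normal glucose library was the highest of the 6 for COL1A1, COL1A2 and DCN. That of 8 macrophage and endothelial markers was 25.4 to 32.9 and 29.5 to 37.5 FPKM, of which the CD68 locus, with 8 gene names, held means of 26.2 and 32.7 FPKM, and PTPRC and CDH5 were at group means of at most 0.00592 FPKM. Of the 6 of these that were tested, KDR fell (1.54 to 0.298 FPKM; edgeR BH-adjusted p = 0.00478). The part of these marker differences in the results below was not tested.

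Short stretches of DNA upstream of ME1 and IDH1 are shown first, because both genes fell in high glucose, both make NADPH in the cytosol, and both windows hold a match to the element of NRF2, a factor of the antioxidant response. Windows of 250 bases upstream of a start site (RefSeq, GRCh38.p14) were at hand for 35 of the 38 genes, as 48 windows, and were searched on both strands. The core of the NRF2 element, TGACNNNGC, was found upstream of IDH1 and ME1, and also of GOT2, IDH3G and OGDHL. ME1 is shown as its whole window at chr6:83431052-83431301 (minus strand), and IDH1 as the 30 bases around the match at chr2:208255195-208255224 (minus strand). Capitals mark the match, which begins 137 bases before the start site in ME1 and 143 in IDH1.
ME1: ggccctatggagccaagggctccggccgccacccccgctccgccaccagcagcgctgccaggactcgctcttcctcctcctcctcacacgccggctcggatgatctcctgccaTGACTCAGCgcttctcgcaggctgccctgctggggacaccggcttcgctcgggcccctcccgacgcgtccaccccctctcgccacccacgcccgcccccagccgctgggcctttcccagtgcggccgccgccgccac
IDH1: cccctctcgcTGACTCCGCccatcccacgg
The NRF2 core was present in 5 of 48 windows (10.4%), and in 10.9% of all 35116 windows, so its share among these enzymes was near the background. The hypoxia core ACGTG was present in 15 of the 48 windows (31.2%), and in 18.5% of all windows. The 15 were windows of IDH1, PC and PDK1, which were called, and of genes that were not. The latter were DLAT, GOT2, IDH3G, ME3, OGDHL, PDHB, PDHX, PDK2, PDK3, PDP2 and PDPR. The core of the amino acid response element bound by ATF4 and C/EBP factors, TGATGNAA, was in none of the 48 windows and in 3.14% of all windows. These are matches of letters in a short window and were not tested as binding sites.

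In high glucose 9 of the 38 enzymes changed, 4 of them higher (ACO1, IDH2, SDHD and PDK1) and 5 lower (IDH1, IDH3A, PC, PCK2 and ME1). A gene is referred to as changed, or called, where edgeR's quasi-likelihood test gave a Benjamini-Hochberg (BH) adjusted p under 0.05 over all 25025 tested loci. Of all tested loci 19.6% were called, 9.75% higher and 9.86% lower, and of 13786 protein-coding loci 25.5% were (13.1% higher, 12.4% lower). The enzymes' share, 23.7% (10.5% higher and 13.2% lower), was thus near that of protein-coding loci. Their median log2 change was 0.03, against 0.01 for protein-coding loci and -0.00415 for all tested loci. The groups did not overlap for 14 of the 38 (36.8%), against 49.5% of protein-coding and 42.3% of all tested loci. The number of enzymes called higher was 0, 2 and 9 without normal glucose library 1, 2 and 3, and 0 without each high glucose library. In the same order, the number called lower was 5, 4 and 6, and then 4, 3 and 3. Not all of these were among the 5 lower genes named above. PDPR was added without normal glucose 3, and PDP1 without high glucose 1, where 3 of the 5 kept their call.

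**Figure D1:**
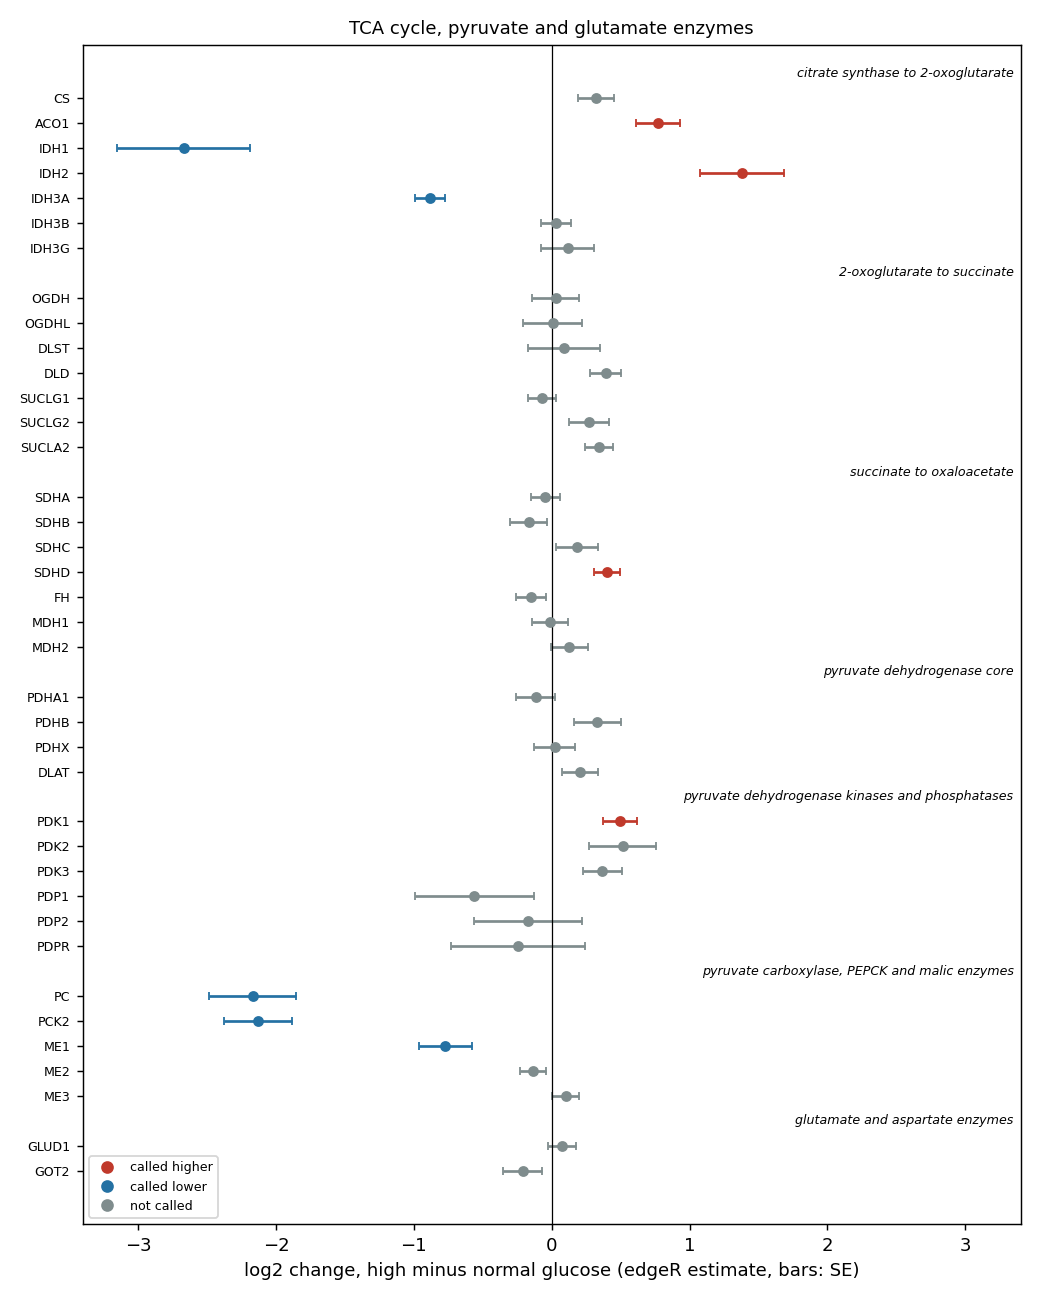
Log2 change (high minus normal glucose, edgeR estimate with SE, n = 3 libraries per group) of each of the 38 enzymes, by role. Red points are called higher, blue points called lower and grey points not called. The blue points lie at IDH1, IDH3A, PC, PCK2 and ME1, and every grey point lies between -0.56 and 0.52.

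Of the 7 enzymes that act between oxaloacetate and 2-oxoglutarate, among them the cytosolic ACO1 and IDH1, which are not part of the mitochondrial cycle, 2 rose and 2 fell, where 25.5% of protein-coding loci were called. The called isocitrate dehydrogenases moved in opposite directions. IDH1, the cytosolic NADP-dependent enzyme, was at 516, 639 and 152 CPM (counts scaled to library size by TMM) in normal glucose libraries 1, 2 and 3, and at 64.2, 78.1 and 63.2 CPM in the high glucose libraries. All high glucose values lay below all normal glucose values, and the third normal glucose library was nearest to them. IDH1 fell from 436 ± 253 to 68.5 ± 8.34 CPM (mean ± SD, n = 3; an estimated log2 change of -2.67, SE 0.483; edgeR BH-adjusted p = 0.0125), a level 6.36-fold lower. IDH2, the mitochondrial NADP-dependent enzyme, was at 17.2, 11.8 and 29.1 CPM in normal and 49.6, 50.5 and 51.0 CPM in high glucose. Here too the third normal glucose library was nearest to the high glucose ones. IDH2 rose from 19.4 ± 8.87 to 50.4 ± 0.739 CPM (n = 3; an estimated log2 change of 1.38, SE 0.305; edgeR BH-adjusted p = 0.0229), to a mean 2.599 times as high.

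IDH3A encodes the catalytic subunit of the NAD-dependent isocitrate dehydrogenase. It was at 62.3, 66.7 and 63.3 CPM in normal and 31.2, 36.4 and 36.6 CPM in high glucose, and the values within each group lay close together. It fell by 0.88 on the log2 scale (SE 0.112; edgeR BH-adjusted p = 0.00475), and its call held in all 17 alternative analyses, with log2 changes of -0.92 to -0.72. The partner subunits IDH3B and IDH3G had log2 changes of 0.03 (SE 0.110) and 0.12 (SE 0.192), with edgeR BH-adjusted p of 0.868 and 0.715, and their groups overlapped. The locus of IDH3G overlaps one of SSR4 on the other strand with a mean of 7718 counts against 3104 for IDH3G, so its values and any ratio to it may hold reads of that neighbour. ACO1, the cytosolic aconitase that also serves as an iron-sensing RNA-binding protein, was at 160.0, 128 and 195 CPM in normal and 267, 271 and 289 CPM in high glucose. It rose by 0.77 (SE 0.159; edgeR BH-adjusted p = 0.0183). CS, citrate synthase, in a locus that also holds CNPY2, was at 151, 200.4 and 180.5 CPM in normal and 229, 227 and 208 CPM in high glucose. Its groups did not overlap, but its log2 change of 0.32 (SE 0.128; edgeR BH-adjusted p = 0.124) was not called. ACO1 lost its call without normal glucose 1 or any 1 of the high glucose libraries (edgeR BH-adjusted p = 0.0586, 0.0633, 0.07 and 0.0756), as did IDH2 (0.0777, 0.0734, 0.0782 and 0.078), and IDH1 without high glucose 1, 2 and 3 (0.0586, 0.0554 and 0.0612), while the estimates over these omissions ranged from 0.74 to 0.80, 1.30 to 1.39 and -2.77 to -2.61.

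**Figure D2:**
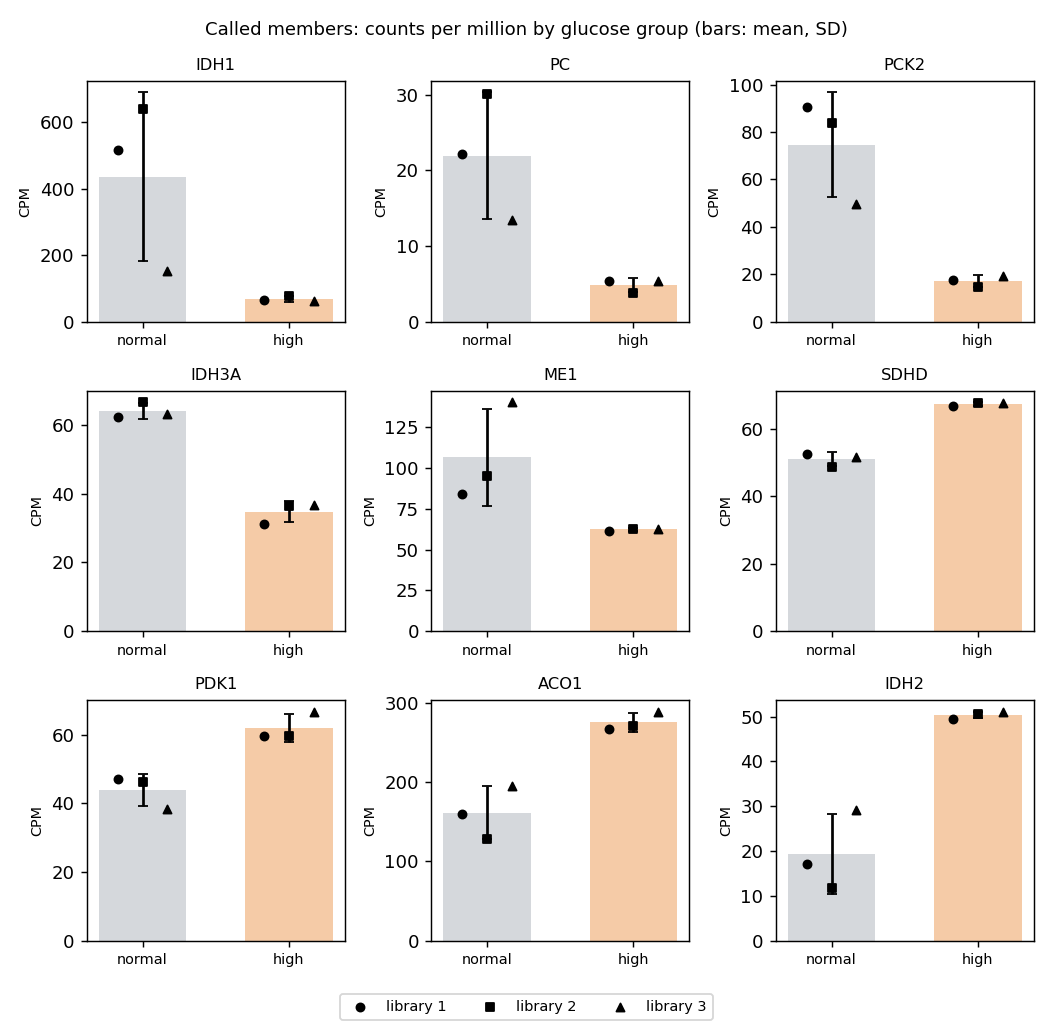
CPM of the 9 called enzymes in each library, with bars at the group mean and error bars of 1 SD (n = 3). Marker shape gives the library number, which does not pair libraries across groups. In each panel the groups do not overlap, and for IDH1, IDH2, ACO1, PC and PCK2 the third normal glucose library is the one nearest to the high glucose values.

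Ratios within a library show these shifts without the scaling between libraries. On FPKM, which divides by a length, the IDH1 to IDH2 ratio was 17.8, 32.2 and 3.10 in normal and 0.768, 0.916 and 0.734 in high glucose. By FPKM, IDH1 was thus the higher of the pair in every normal glucose library and IDH2 in every high glucose library. By CPM, without division by length, IDH1 stayed above IDH2 in high glucose too (64.2, 78.1 and 63.2 against 49.6, 50.5 and 51.0). Which of the pair is higher in high glucose thus depends on the lengths used. The ratio of IDH3A to IDH3B was 0.660, 0.641 and 0.575 in normal and 0.302, 0.355 and 0.334 in high glucose, and that of IDH3A to IDH3G was 0.879, 1.001 and 0.630 and then 0.430, 0.392 and 0.395. The ratio of PC to PDHA1 was 0.327, 0.458 and 0.151 in normal and 0.0766, 0.0554 and 0.0817 in high glucose. As a ratio of transcripts it measures neither the carboxylation nor the oxidation of pyruvate. The PC values may also hold reads of LRFN4, whose locus overlaps that of PC. The ratio of ME1 to ME2 was 3.69, 3.96 and 5.56 in normal and 2.90, 2.94 and 2.74 in high glucose. For all 5 ratios, chosen after the values were seen, the groups did not overlap, and a 2-sided exact permutation test on the log2 ratio gave p = 0.1 (adjusted p = 0.1), the smallest value that 3 against 3 libraries allow.

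**Figure D3:**
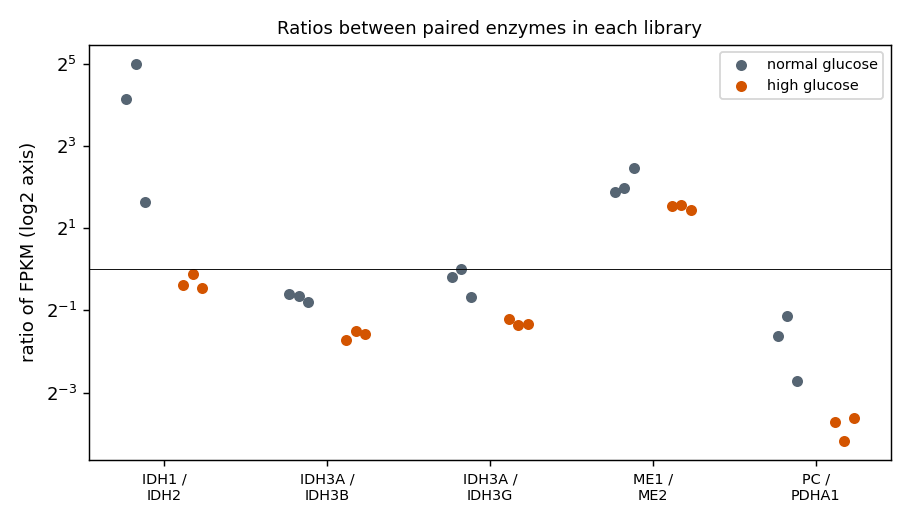
Ratio of FPKM between 5 pairs of enzymes in each library, on a log2 axis, with the 3 normal glucose libraries in grey and the 3 high glucose libraries in orange. The IDH1 to IDH2 ratio lies above 1 in normal glucose (3.10 to 32.2) and below 1 in high glucose (0.734 to 0.916).

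From 2-oxoglutarate to succinate none of 7 genes was called, by edgeR or by DESeq2, where edgeR called 25.5% of protein-coding loci. Of the 7, 2 had an unadjusted p under 0.05, DLD and SUCLA2, which were called higher in 8 and 6 of the 17 alternative analyses. OGDH, the E1 subunit of the 2-oxoglutarate dehydrogenase complex, was at 129, 152 and 198 CPM in normal and 171, 145 and 172 CPM in high glucose (log2 change 0.03, SE 0.171; edgeR BH-adjusted p = 0.924). Its values in high glucose lay within the range of normal glucose. OGDHL, its paralog, DLST, the E2 subunit, and SUCLG1, the shared alpha subunit of the succinyl-CoA ligases, had log2 changes of 0.01, 0.09 and -0.07. DLD, the E3 subunit used by the pyruvate and the 2-oxoglutarate complexes, was at 71.3, 62.7 and 76.9 CPM in normal and 87.4, 95.4 and 94.0 CPM in high glucose. Its log2 change of 0.39 (SE 0.113) had an edgeR BH-adjusted p of 0.0508, which was 0.0158 once normal glucose 3 was left out. SUCLA2 and SUCLG2, the beta subunits of the ATP- and GTP-forming ligases, had log2 changes of 0.34 and 0.27 (edgeR BH-adjusted p = 0.0594 and 0.230), and their groups did not overlap. For SUCLA2 the omission of normal glucose 3 gave a BH-adjusted p of 0.0311. Its locus overlaps others with a mean of up to 1086 counts against 3362 for SUCLA2.

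From succinate to oxaloacetate 1 of 7 genes was called, where 25.5% of protein-coding loci were. SDHD, a membrane anchor of succinate dehydrogenase, was at 52.6, 48.7 and 51.7 CPM in normal and 66.6, 67.8 and 67.5 CPM in high glucose, with little spread in either group. It rose by 0.40 (SE 0.0946; edgeR BH-adjusted p = 0.0279), or 1.32-fold. Its locus carries 5 names, BCO2 and TEX12 among them, and overlaps that of IL18, so the counts are not those of SDHD alone. The call was lost on leaving out normal glucose 1 or 2 (edgeR BH-adjusted p = 0.0594 and 0.0737) or high glucose 1, 2 or 3 (0.0965, 0.110 and 0.102), and the estimates stayed between 0.37 and 0.42. SDHA, the flavoprotein subunit, whose locus holds 6 names including PDCD6 and AHRR and whose reads may be shared with its pseudogenes, was at 161, 166 and 194 CPM in normal and 165, 173 and 168 CPM in high glucose (log2 change -0.04; edgeR BH-adjusted p = 0.808). SDHB, the iron-sulfur subunit, and SDHC, the other anchor, had log2 changes of -0.17 and 0.18. FH, fumarase, was at 49.7, 51.2 and 54.5 CPM in normal and 50.6, 45.5 and 44.0 CPM in high glucose (log2 change -0.15, SE 0.108; edgeR BH-adjusted p = 0.381). MDH2, the mitochondrial malate dehydrogenase, was at 128, 125 and 167 CPM in normal and 162, 149.7 and 148 CPM in high glucose (log2 change 0.13; edgeR BH-adjusted p = 0.555), and without normal glucose 3 it had a log2 change of 0.27 and an adjusted p of 0.0441. MDH1, its cytosolic counterpart, had a log2 change of -0.01.

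No core subunit of pyruvate dehydrogenase was called among 4, by edgeR or by DESeq2, where edgeR called 25.5% of protein-coding loci. None of the 4 had an unadjusted p under 0.05. PDHA1, the catalytic E1 alpha subunit, was at 41.9, 40.6 and 54.7 CPM in normal and 43.6, 42.3 and 40.7 CPM in high glucose (log2 change -0.12, SE 0.142; edgeR BH-adjusted p = 0.610). Its groups overlapped, with the third normal glucose library highest. PDHB, the E1 beta subunit, DLAT, the E2 subunit, and PDHX, which binds E3, had log2 changes of 0.33, 0.21 and 0.02, and the PDHX locus overlaps one of APIP (mean of 1230 counts against 2609). Without normal glucose 3, PDHB and DLAT had log2 changes of 0.52 and 0.32 (edgeR BH-adjusted p = 0.0154 and 0.0422).

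Among the 6 regulators of that complex, PDK1 was called and the other 5 were not, where 25.5% of protein-coding loci were called. PDK1, a kinase that inactivates pyruvate dehydrogenase and is a known target of hypoxia-inducible factor, was at 47.0, 46.2 and 38.5 CPM in normal and 59.6, 59.5 and 66.7 CPM in high glucose. It rose from 43.9 ± 4.70 to 61.9 ± 4.12 CPM (n = 3; an estimated log2 change of 0.50, SE 0.122; edgeR BH-adjusted p = 0.0316), or 1.41-fold. The call was lost on leaving out normal glucose 1 or 2 (edgeR BH-adjusted p = 0.0591 and 0.0624) or high glucose 1, 2 or 3 (0.0894, 0.0938 and 0.1201), with estimates of 0.44 to 0.55. PDK3 did not overlap between groups (27.3 to 37.1 CPM in normal and 38.5 to 42.1 CPM in high glucose; log2 change 0.37; edgeR BH-adjusted p = 0.116), and PDK2 did (29.1 to 43.2 and 38.1 to 65.4 CPM; log2 change 0.52; edgeR BH-adjusted p = 0.183).

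Each of the 3 phosphatase genes had a library far from the others of its group. PDP1, the calcium-stimulated catalytic subunit, was at 78.9, 77.5 and 78.4 CPM in normal and at 96.7, 30.4 and 32.0 CPM in high glucose. The first high glucose library thus lay above all normal glucose libraries and the other 2 far below them (log2 change -0.56, SE 0.433; edgeR BH-adjusted p = 0.411), and without it the log2 change was -1.32 (edgeR BH-adjusted p = 0.0142). PDP2, the other catalytic subunit, was at 34.5, 32.7 and 24.7 CPM in normal and 30.8, 38.9 and 12.0 CPM in high glucose (log2 change -0.17; edgeR BH-adjusted p = 0.799), with the third high glucose library lowest. Without that library its log2 change was 0.19, and without high glucose 2 it was -0.51. PDPR, the regulatory subunit, was at 151, 151 and 34.3 CPM in normal and 94.6, 96.7 and 92.9 CPM in high glucose (log2 change -0.24; edgeR BH-adjusted p = 0.765). Without normal glucose 3, the low one, its log2 change was -0.67 (edgeR BH-adjusted p = 0.00168), while without normal glucose 1 or 2 it was 0.03 or 0.04.

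**Figure D4:**
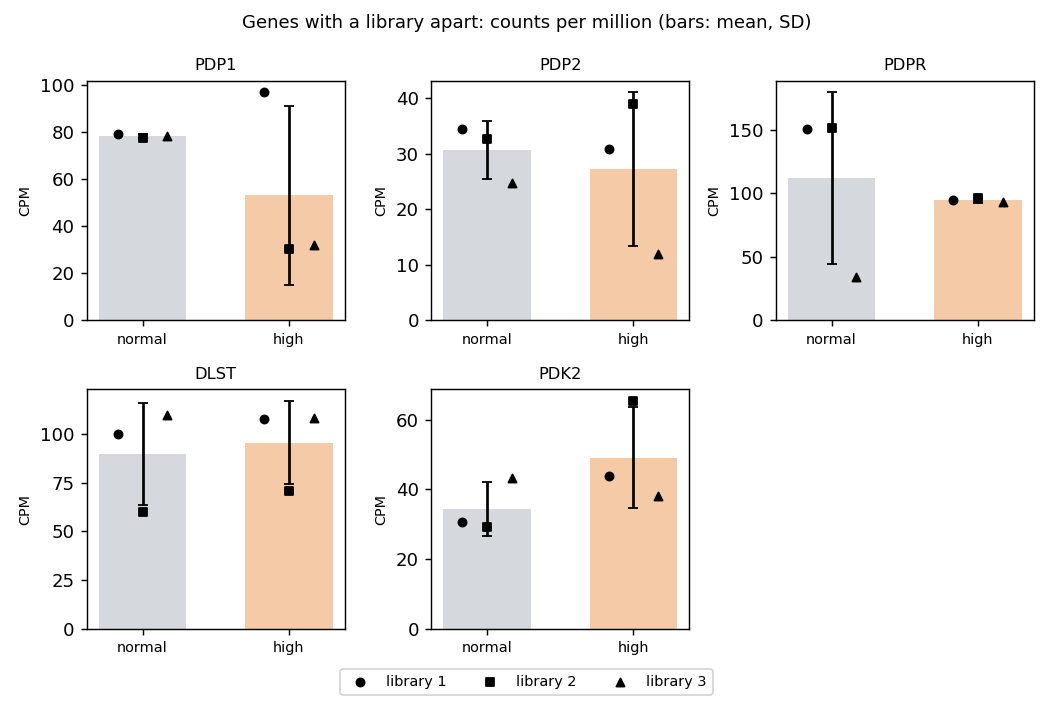
CPM of 5 enzymes whose libraries spread within a group, with bars at the group mean and error bars of 1 SD (n = 3). PDP1 is high in the first high glucose library (96.7 CPM), and PDPR is low in the third normal glucose library (34.3 CPM).

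The enzymes around pyruvate, malate and phosphoenolpyruvate held 3 of the 5 genes that fell, among 5 measured, where 12.4% of protein-coding loci were called lower. PC, pyruvate carboxylase, which refills the cycle with oxaloacetate, was at 22.2, 30.1 and 13.4 CPM in normal and 5.41, 3.83 and 5.39 CPM in high glucose. It fell from 21.9 ± 8.37 to 4.88 ± 0.908 CPM (n = 3; an estimated log2 change of -2.17, SE 0.316; edgeR BH-adjusted p = 0.00687), a level 4.49-fold lower. PC was the least abundant of the 38 enzymes per length in high glucose, at 0.549 ± 0.106 FPKM, after 2.40 ± 0.927 FPKM in normal glucose. A locus that overlaps it, LRFN4, had a mean of 3245 counts against 1148 for PC, and the sources used here do not state that strand was used in counting.

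PCK2, the mitochondrial phosphoenolpyruvate carboxykinase and a known target of ATF4, was at 90.8, 83.8 and 49.7 CPM in normal and 17.4, 14.5 and 19.4 CPM in high glucose. It fell from 74.7 ± 22.0 to 17.1 ± 2.48 CPM (n = 3; an estimated log2 change of -2.13, SE 0.247; edgeR BH-adjusted p = 0.00365), a level 4.37-fold lower. PCK1, its cytosolic counterpart, had 0 counts in all 6 libraries, which allows up to 3 counts in each. The calls of PC and PCK2 held in all 17 alternative analyses. The summed level of 12 other genes known as ATF4 targets was 536, 605 and 226 FPKM in normal and 90.4, 92.1 and 87.0 FPKM in high glucose. They were ATF3, DDIT3, TRIB3, CHAC1, ASNS, PSAT1, PHGDH, SLC7A11, SESN2, DDIT4, VLDLR and CEBPB. Of these 12, 9 fell and none rose, where 12.4% of protein-coding loci were called lower. Their median log2 change was -2.48. PCK2, PC and IDH1 shared with the summed ATF4 targets an intermediate value in the third normal glucose library. ACO1 and IDH2, which rose, had such a value too. On the first principal component of all tested loci, with 62.6% of the variance, that library lay at -22.1. The other normal glucose libraries lay at -49.3 and -59.8 and the high glucose ones at 43.3 to 44.2. The intermediate value is thus not particular to these genes. Whether the ATF4 targets have a part in their change was not tested.

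ME1, the cytosolic NADP-dependent malic enzyme and a known NRF2 target, was at 84.4, 95.0 and 141 CPM in normal and 61.5, 62.9 and 63.0 CPM in high glucose. It fell by 0.77 (SE 0.192; edgeR BH-adjusted p = 0.0327), and by 0.52 without normal glucose 3, which had the highest value. Its call was lost without normal glucose 2 (edgeR BH-adjusted p = 0.0590) or high glucose 1, 2 or 3 (0.110, 0.110 and 0.107). The mitochondrial malic enzymes ME2 and ME3 were at 101 to 120 and 71.0 to 83.9 CPM over all 6 libraries, with log2 changes of -0.14 and 0.10 (edgeR BH-adjusted p = 0.366 and 0.521).

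Neither glutamate enzyme was called, where 25.5% of protein-coding loci were. GLUD1, glutamate dehydrogenase, which makes 2-oxoglutarate from glutamate and has a near-identical copy in GLUD2 and a locus overlapped by one of SHLD2 (mean of 2700 counts against 7949), was at 88.1, 86.0 and 96.5 CPM in normal and 89.3, 98.8 and 97.3 CPM in high glucose (log2 change 0.08, SE 0.102; edgeR BH-adjusted p = 0.642). GOT2, the mitochondrial aspartate aminotransferase of the malate-aspartate shuttle, was at 180, 183 and 246 CPM in normal and 180, 177 and 169 CPM in high glucose (log2 change -0.21, SE 0.143; edgeR BH-adjusted p = 0.346). By the unadjusted p, neither lay under 0.05. DESeq2 also called neither.

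Per length, the order of the enzymes by group mean changed at its top with the fall of IDH1. IDH1 led in normal glucose libraries 1 and 2 (88.2 and 109 FPKM, against 38.4 and 39.2 for GOT2). In the third it was at 25.9 FPKM, already below GOT2 at 52.3 and MDH2 at 36.6 FPKM. In normal glucose IDH1 had the highest mean, 74.5 ± 43.4 FPKM (n = 3), followed by GOT2 at 43.3 ± 7.79 and MDH2 at 30.8 ± 4.98 FPKM, and the spread of IDH1 reached that of GOT2. In high glucose GOT2 was highest at 38.5 ± 1.49, followed by MDH2 at 34.7 ± 1.96 and SDHC at 29.9 ± 2.78 FPKM, and IDH1 was at 12.0 ± 1.43 FPKM, close to IDH3B at 12.7 ± 0.436 FPKM. Lowest in normal glucose were PDK3, PDK1 and PC, at 1.88 ± 0.304, 2.37 ± 0.264 and 2.40 ± 0.927 FPKM, which did not differ beyond their spread. In high glucose PCK2, at 2.61 ± 0.379 FPKM, was next to PDK3 at 2.49 ± 0.102 FPKM.

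Of 34 further genes of these pathways, 32 were tested, 1 rose and 5 fell, against 25.5% of protein-coding loci called, and their median log2 change was 0.19. Among the 7 genes of glutamine handling and transamination 4 fell and none rose, where 12.4% of protein-coding loci were called lower. ASNS, asparagine synthetase, which uses glutamine, is also among the 12 ATF4 targets counted above, and its locus has 6 names. It fell from 135, 143 and 78.2 CPM to 31.6, 29.2 and 30.2 CPM (log2 change -1.97; edgeR BH-adjusted p = 0.00365). GOT1, the cytosolic partner of GOT2, fell from 89.6, 91.6 and 54.8 CPM to 32.9, 42.4 and 37.7 CPM (log2 change -1.06; edgeR BH-adjusted p = 0.0175). In GOT1, too, the third normal glucose library lay nearest to the high glucose values.

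GPT2, the mitochondrial alanine aminotransferase, and GLUL, glutamine synthetase, fell by 0.86 and 0.85 (edgeR BH-adjusted p = 0.0363 and 0.0445). ACSS1, the mitochondrial acetyl-CoA synthetase, fell from 4.11, 3.16 and 2.12 CPM to 0.964, 0.912 and 0.850 CPM (log2 change -1.78; edgeR BH-adjusted p = 0.00973). Its level was low in both groups, with means of 0.287 FPKM in normal and 0.0846 FPKM in high glucose. Each high glucose library held 70 to 86 counts of it. GOT1 was not called without any 1 of 5 libraries (0.0547 to 0.0746, all but normal glucose 3), GPT2 without normal glucose 1 and 2 (0.0992 and 0.106) and high glucose 1 and 2 (0.126 and 0.129), GLUL without any 1 of the 6 (0.0632 to 0.102), and ACSS1 without high glucose 2 and 3 (0.0519 and 0.0521). MPC1 and MPC2, the subunits of the mitochondrial pyruvate carrier, had log2 changes of -0.10 and 0.56 (edgeR BH-adjusted p = 0.894 and 0.131). PDK4, a starvation-induced kinase, was at 1.74, 4.45 and 2.08 CPM in normal and 4.74, 6.23 and 4.08 CPM in high glucose (log2 change 0.86; edgeR BH-adjusted p = 0.163).

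**Figure D5:**
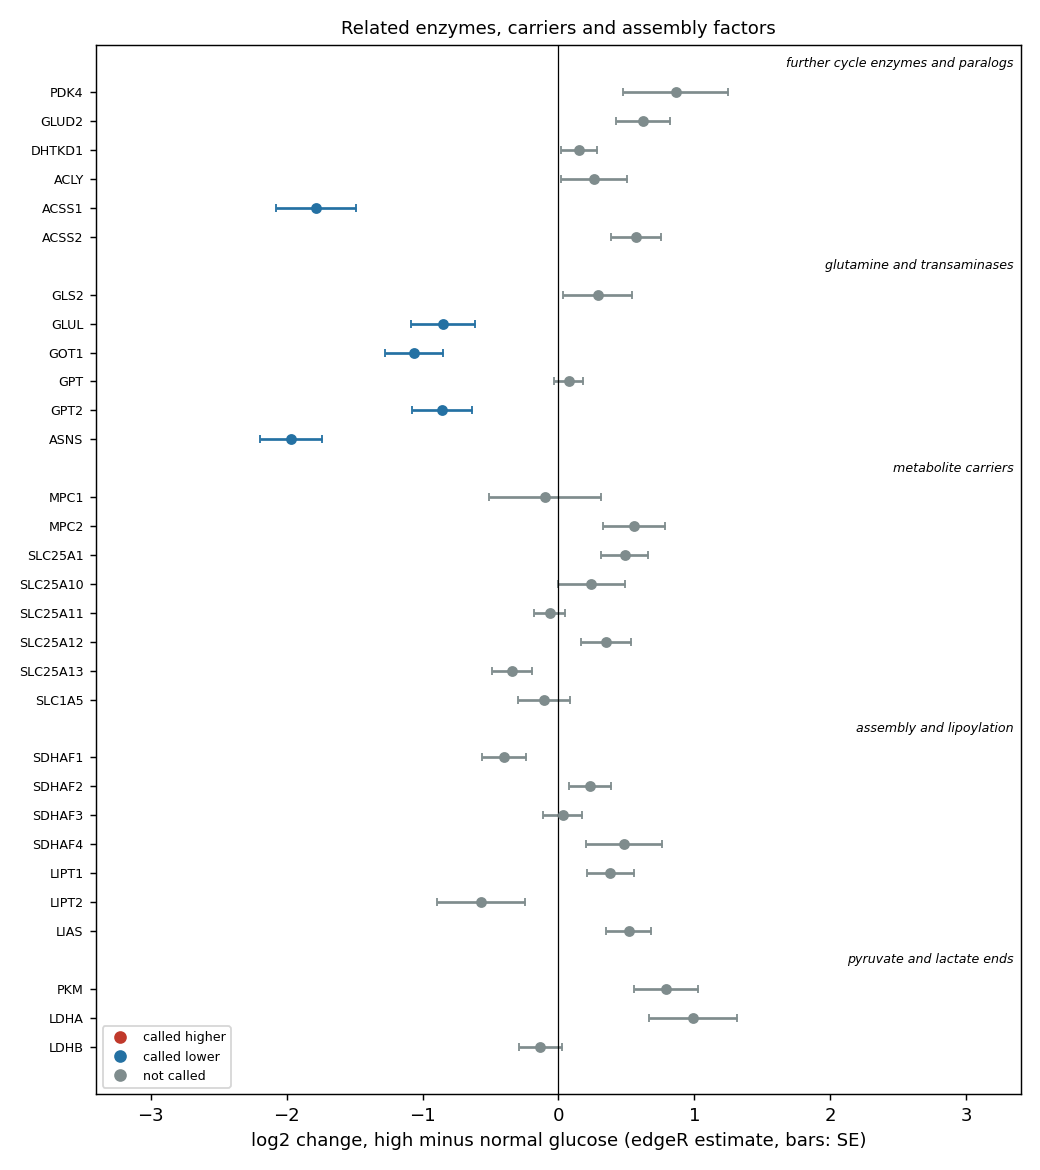
Log2 change (high minus normal glucose, edgeR estimate with SE, n = 3 libraries per group) of 30 of the 32 further enzymes, carriers and assembly factors of the same pathways, by role. ASNS, ACSS1, GOT1, GPT2 and GLUL lie at the left as called lower. No carrier or assembly factor is called, where 25.5% of protein-coding loci were.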

How the data were processed

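The authors deposited 1 table, with a count and an FPKM value for each locus in each library. Counts are raw whole numbers, per the file headers. FPKM values are those of the authors, and the length that they divide by was not worked out here. Bowtie 0.12.2 and mm8, a mouse build, are listed in the submitters' processing notes, yet the table's loci are human: all 38 enzymes overlapped their GRCh38.p14 span. How reads were counted, and whether by strand, is not given in the sources used. The 37 mitochondrial genome loci, all at 0, were left out. No 2 libraries held identical counts. Loci were filtered with filterByExpr (minimum count 10), scaled by TMM and tested for high minus normal glucose, 2-sided, with edgeR 4.0.16 in R 4.3.3. SE is the estimate over the root of its F statistic. A symbol with several annotated loci was read from the one with the highest mean count. Alternatives used DESeq2 1.42.0 and limma 3.58.1 (closing section). On simulated counts for the 25025 loci, the test called 13% of 100 loci changed 2-fold and 56% of 100 changed 4-fold. No other loci were changed there, against 4906 called in the data, and the changed loci were drawn from any count level. These shares therefore do not tell how often the test would call a changed enzyme.

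The enzymes and gene lists were chosen with earlier results of these data known. Genes given with values are every called enzyme, 13 enzymes fixed by name, the extremes of a role group, called further genes, and MPC1, MPC2, PDK4 and GLUL. The counts over further genes include 2 genes that are not reported here. Enzymes named beyond this were chosen after their values were seen.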

Additional observations from a re-analysis of the deposited data

How the results depend on the processing

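Of the 17 alternatives, none reversed a called enzyme. IDH1, IDH3A, PC, PCK2 and ME1 were called lower in all alternatives that used all 6 libraries except the replicate block. With the replicate number as a block, 2 enzymes were called higher and 4 lower (2 and 4 of them also called without it, as SDHD, PDK1 and ME1 had adjusted p of 0.0965, 0.0945 and 0.0592), 1312 loci higher and 1233 lower in place of 2439 and 2467, and 3 further genes lower. Same-numbered libraries did not deviate together (correlations of -0.0255, 0.0181 and -0.00888), so no pairing was assumed. Further genes called higher numbered 2 with library size alone or counts divided by 4, 3 with voom and group weights, 5 with DESeq2 or limma on log2 FPKM (pseudocount 1 or 0.1), and 0 without a filter on low counts, against 1. With one library left out, 0 to 9 enzymes were called higher and 3 to 6 lower, 0 to 8 further genes higher and 1 to 4 lower, and 730 to 3932 loci higher and 691 to 3683 lower. The number of loci fell with each omission except that of normal glucose 3. Each omission also leaves fewer libraries to test. The log2 change of PC was -1.10 on log2(FPKM + 1), a scale that understates low genes. Without a filter on low counts SDHD had an adjusted p of 0.0550, and GLUL had 0.0534 with library size alone and 0.0529 with voom. The estimate of PDPR, which was not called, was 0.04 with voom, 0.02 and 0.07 on log2 FPKM with pseudocounts of 1 and 0.1, and 0.01 with the block. With all 6 libraries DLD was called higher with library size alone, a count of 40 in 3 libraries, both FPKM scales, counts divided by 4, upper-quartile scaling and voom (adjusted p of 0.0230 to 0.0412), and SUCLA2 with the first 5 of these (0.0319 to 0.0451). Every enzyme had at least 336 counts per library, so none was near the filter on low counts.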
